A study of Mus musculus with 6 samples.

Results

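Cells sorted from mouse dura as lymphatic endothelial cells (LECs) were profiled at baseline in the 3 AAV-Control libraries of a series of 6. The libraries were chosen by their treatment label alone, and no measured value entered the choice. The mice were wild type (WT) and, per the study's methods, male C57BL/6J animals that received the virus into the cisterna magna at 4 wk of age. The control virus was an adeno-associated virus (AAV) of serotype 9 that encoded ectodomains of mouse VEGFR-3 fused to an immunoglobulin part and unable to bind VEGF-C, so the group is not free of virus. *Flt4* encodes VEGFR-3, so RNA made from the vector and from the mouse's own gene cannot be told apart in its value. Each library came from a separate repeat of the experiment (AAV-Control 1, 2 and 3), with the dura of 10 to 12 mice pooled. Viable cells positive for CD31, podoplanin and LYVE-1 and negative for CD45 were sorted, and total RNA rather than polyadenylated RNA was made into stranded libraries. The libraries held 6530269, 7858091 and 12399498 estimated counts in AAV-Control 1, 2 and 3. Values for the libraries are given in this order throughout.

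LECs form the inner wall of lymphatic vessels and take up fluid, solutes and immune cells and carry them towards lymph nodes. In the dura, the outer membrane of the meninges, lymphatic vessels run beside large veins and drain cerebrospinal fluid components to the cervical lymph nodes. Their identity is set by the transcription factor PROX1, their growth by VEGF-C acting on VEGFR-3, and their attraction of dendritic cells by the chemokine CCL21. The dura also holds fibroblasts, border macrophages, which can carry LYVE-1 themselves, blood vessels with mural cells, and attachments to bone. Levels are given as TPM, a transcript abundance that corrects for gene length and sums to 1000000 over all genes of a library. Because noncoding RNA took a different share of each library, a second scale is given for some of the comparisons between libraries. It is called coding TPM here, and in it the nuclear protein-coding genes of each library alone sum to that total. Going from TPM to coding TPM multiplies the values of AAV-Control 1, 2 and 3 by 6.18, 5.11 and 3.61. The order of the libraries in values given in TPM alone can therefore differ in coding TPM.

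The libraries stood apart from each other in ways that touch the results. AAV-Control 1 held almost no leukocyte RNA, with 5 counts of *Ptprc*, which encodes CD45, against 1126 and 1286 in AAV-Control 2 and 3. AAV-Control 3 held the most RNA of blood vessel endothelium and the least RNA assigned to annotated miRNA genes. The sex-linked transcripts went against the sex given in the methods in every library. *Xist*, the noncoding RNA of the inactive X chromosome, was at 42.8, 35.2 and 69.9 TPM (5472, 5142 and 15050 counts), while *Ddx3y*, *Uty*, *Kdm5d* and *Eif2s3y*, the broadly used genes of the Y chromosome, had 3, 4 and 0 counts in sum. *Ddx3x*, the X-linked partner of *Ddx3y*, had 2512, 4556 and 7738 counts. *Xist* overlaps exons of other annotated genes on both strands, and 5 of 1562 genes on the Y chromosome had 10 counts or more in any library. The group is therefore called by its treatment label only, and no sex is given to it. In bulk RNA, fewer cells of a type and less RNA per cell cannot be told apart, which holds for every list of cell type markers below. The sum of the 20 genes of the fibroblast list was 9.51, 6.38 and 15.4 times that of the 6 lymphatic markers. The sum of the 18 genes of the macrophage list was 0.0756, 9.22 and 6.59 times that of the lymphatic markers. These sums are over lists of unlike length, and the lymphatic sum leaves out the near copies of *Ccl21a*. The median level over the 3 libraries was 94.3 TPM for the fibroblast list, 84.8 for the macrophage list and 26.9 for the lymphatic markers. Levels below are therefore those of the whole sorted pools and were not assigned to LECs alone.

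Most TPM did not lie in messenger RNA. The 10 genes with the highest mean were noncoding RNAs or pseudogenes, and several are copies that share their sequence, so that the counting program had to split their reads. The sequences that show this are printed from the reference transcripts (GENCODE M21 on GRCm38), in lower case, with the differing base of each pair in capitals. *Gm24270* (chr9:56223715-56223771, minus strand), *Gm23935* (chr16:11144125-11144181, plus strand) and *Gm24245* (chr4:139338304-139338360, plus strand) are annotated as miRNA genes of 57 bases and are identical. *Gm24187* (chr13:9834469-9834525, minus strand) differs from them by G11A, counted from 1 at the 5′ end.
Gm24270: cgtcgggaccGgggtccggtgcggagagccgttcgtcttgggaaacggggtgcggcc
Gm24187: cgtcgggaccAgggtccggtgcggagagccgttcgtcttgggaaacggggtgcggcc
Their small length makes 1 count worth 4.76 TPM in AAV-Control 1, against 0.0131 TPM for *Col1a1*, a long mRNA. *Gm24270* was at 116428, 74436 and 549 TPM. The identical 3 genes together held 33.9, 22.0 and 0.192% of TPM but 1.09, 0.610 and 0.00455% of counts. AAV-Control 3 was far below the others on either measure.

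*Mir6236* (chr9:110281287-110281409, plus strand) was likewise lowest in AAV-Control 3, with 69654, 74177 and 7144 TPM from 44135, 45265 and 2823 counts. The libraries did not select small RNA, so the counts belong to the whole annotated stretch of 123 bases and not to a mature miRNA. *CT010467.1*, an annotated nuclear rRNA gene of 2466 exonic bases on chromosome 17, was at 35769, 43124 and 8357 TPM. The processed pseudogenes *Gm12895* (63220, 41034 and 6549 TPM) and *Gm12896* (47043, 31759 and 5179 TPM) are copies of 226 bases that are shifted against each other, and they too were lowest in AAV-Control 3. *Lars2*, a mitochondrial leucyl-tRNA synthetase, was lowest in AAV-Control 3 too, at 1084, 1201 and 174 TPM. The origin of its reads was not tested either. *Lars2* was the only 1 of the 30 highest protein-coding genes that was lowest there in TPM, while 9 of the 30 were in coding TPM.

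The small nuclear and signal recognition particle RNAs were highest in AAV-Control 3 in TPM, but not all of them in counts. *Rn7s1* (chr12:69159295-69159594, plus strand) and *Rn7s2* (chr12:69361182-69361481, minus strand) encode 7SL RNA, the RNA of the signal recognition particle that docks ribosomes on the endoplasmic reticulum, and are identical over 300 bases. *Gm26444* (chr12:54729602-54729765) and *Gm22513* (chr12:54696782-54696945), both on the plus strand, are annotated as snRNA genes and differ by T60C.
Gm26444: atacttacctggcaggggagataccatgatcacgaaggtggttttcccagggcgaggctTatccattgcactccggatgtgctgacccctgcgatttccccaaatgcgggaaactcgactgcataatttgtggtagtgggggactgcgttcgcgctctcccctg
Gm22513: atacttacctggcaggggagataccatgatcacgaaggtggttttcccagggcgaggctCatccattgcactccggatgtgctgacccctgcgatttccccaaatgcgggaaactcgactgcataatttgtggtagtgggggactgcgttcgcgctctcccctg
*Rn7s1* had the highest mean of the group, at 75419, 111472 and 293352 TPM, though the identical genes of 57 bases lay above it in AAV-Control 1, and *Rn7s2* was at 34315, 48975 and 25905. Since the copies are identical, only their sum of 109735, 160447 and 319257 TPM is read here. Exons of other annotated genes overlap both copies on the same strand. *Gm26444* was at 11890, 29824 and 69789 TPM and *Gm22513* at 12551, 24069 and 41715. *Rn7sk*, the 7SK RNA that restrains transcription elongation, was at 5281, 8792 and 36350 TPM. *Rpph1*, the RNA of ribonuclease P, was at 6469, 9393 and 16435 TPM, and *Rmrp*, the RNA of the related ribonuclease MRP, at 4090, 5078 and 7261 TPM. With *Rn7s1* and *Rn7s2* taken as a sum, all of them were highest in AAV-Control 3 in TPM. In counts the order differed, since *Rn7s1* and *Rn7s2* held 4.70, 5.88 and 5.45% and *Gm26444* and *Gm22513* 0.360, 0.637 and 0.526%, both highest in AAV-Control 2. *Rmrp* held 0.166, 0.174 and 0.134% of counts, *Rpph1* 0.317, 0.394 and 0.398% and *Rn7sk* 0.254, 0.364 and 0.810%. *Rn7sk* thus stayed highest in AAV-Control 3 and *Rmrp* was lowest there. A further entry named *Rmrp* was left out of these values.

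By class, annotated miRNA genes took 43.9, 31.5 and 0.943% of TPM and 1.87, 1.25 and 0.0283% of counts. Nuclear protein-coding genes took 16.2, 19.6 and 27.7% of TPM (21.2% ± 5.92, SD, n = 3) and 67.4, 66.9 and 78.3% of counts. The class of 7SL, 7SK and similar RNAs took 12.7, 18.6 and 38.2% of TPM, and snRNA 4.38, 8.55 and 16.3%. Nuclear rRNA took 12.4, 13.5 and 1.98% of counts, and mitochondrial rRNA and tRNA 2.23, 3.10 and 6.20%. Long noncoding RNA stayed between 1.63 and 2.01% of TPM, with *Malat1*, a nuclear RNA of splicing speckles, at 1395, 1418 and 4615 TPM and *Neat1*, the scaffold of paraspeckles, at 32.9, 66.3 and 96.6 TPM. Of 11 abundant noncoding RNAs from a fixed list of 12 that the table names, 10 reached 5 TPM in every library. *Kcnq1ot1*, an imprinted antisense RNA, was the exception, at 1.91, 0.812 and 2.35 TPM. AAV-Control 1 and 2 lay closer to each other than to AAV-Control 3 for miRNA and both kinds of rRNA in shares of TPM and of counts. For snRNA this held for TPM but not for counts, at 0.624, 1.0 and 0.784%.

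**Figure D1:**
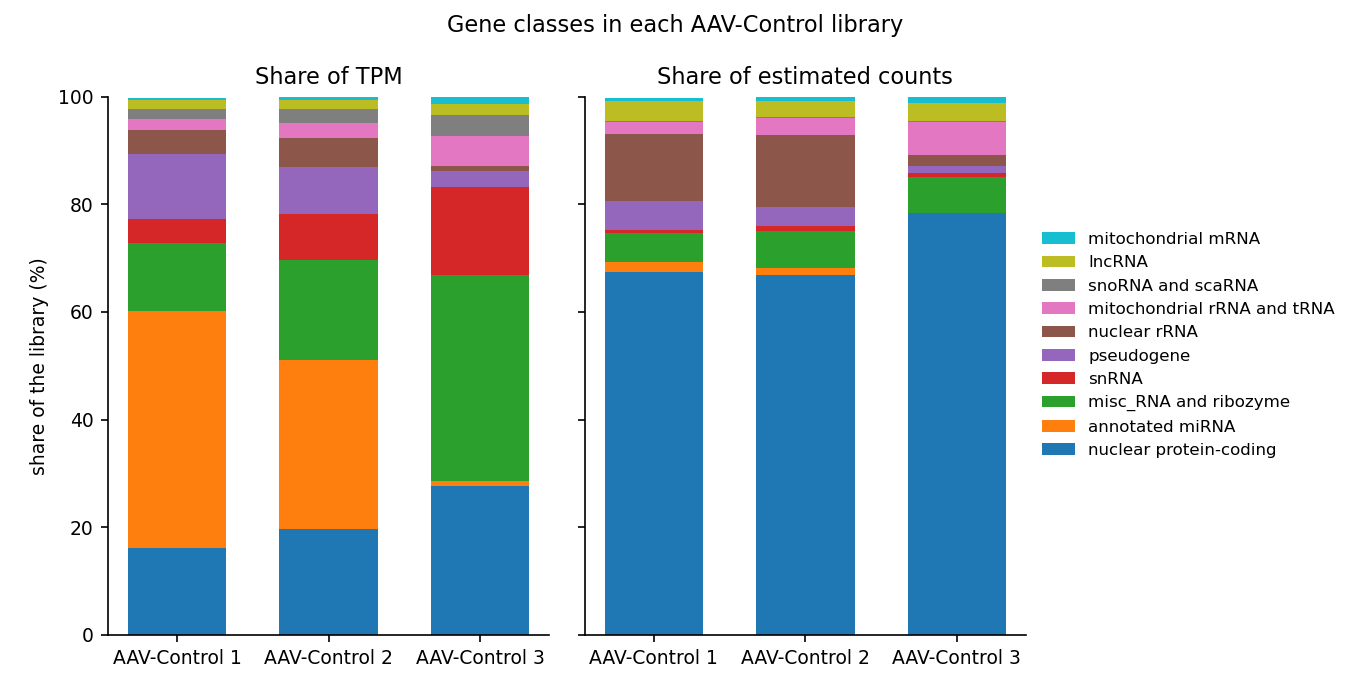
Stacked bars give the share (%) of each gene class in AAV-Control 1, 2 and 3, of TPM on the left and of estimated counts on the right. Annotated miRNA genes fill 43.9, 31.5 and 0.943% of TPM but at most 1.87% of counts, while nuclear protein-coding genes fill at least 66.9% of counts in each library.

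The number of genes above a fixed TPM cutoff was similar between the libraries at 1 TPM, but not at higher cutoffs. One cutoff in TPM is a different coding TPM in each library, by the factors 6.18, 5.11 and 3.61. The counts per library therefore depend on the noncoding share too. Nuclear protein-coding genes at 5 TPM or more numbered 6259, 6970 and 8718, and those at 50 TPM or more 496, 609 and 984. At 1 TPM or more there were 14101, 14445 and 15027 genes, and 11905 genes reached it in all 3 libraries. Among 21884 nuclear protein-coding genes, 10492 reached 1 TPM, 5615 reached 5 TPM (25.7%) and 380 reached 50 TPM in every library, and 2969 were at 0 in every library. Their median level was 1.76 TPM. The share of 25.7% is the background for every count below of listed genes at 5 TPM in all 3 libraries. As a measure of stray reads, 1653 genes with no known role in endothelium (odour, pheromone and taste receptors, hair keratin partners, and defensins) had a 99th percentile of 0.473, 0.349 and 0.427 TPM. A level of 5 TPM, used below to call a gene present, lay above the highest of these genes in every library, at 3.47, 3.41 and 1.33 TPM. The 100 highest genes of any class held 81.3, 77.6 and 70.6% of TPM. Within the nuclear protein-coding class the 100 highest held 21.2, 23.0 and 20.1%, and the 3 lists of 100 shared 49 genes. AAV-Control 2 and 3 shared 71, while AAV-Control 1 shared 58 with each of them.

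The 6 lymphatic marker genes were read first. All 6 of 6 reached 5 TPM in every library, against 25.7% of nuclear protein-coding genes. Their median level of 26.9 TPM compares with 1.76 TPM over that class. The count shows that lymphatic marker RNA was present, but it is no test of identity. *Pdpn* and *Lyve1* encode antigens used in the sort, and 17 of 20 fibroblast genes reached the same level in every library. *Ccl21a* (chr4:42772860-42773993, minus strand), the chemokine that guides CCR7-bearing dendritic cells, was the highest, at 352, 264 and 247 TPM. It ranked 29, 63 and 101 among protein-coding genes, so it belongs to the most abundant mRNAs of AAV-Control 1 and 2. *Mmrn1* (chr6:60924976-60989378), a secreted multimerin stored by LECs, was at 78.4, 46.8 and 44.8 TPM. *Flt4* (chr11:49609263-49652739) was at 35.6, 19.3 and 26.0 TPM. *Pdpn* (chr4:143267431-143299564), the mucin-type glycoprotein podoplanin used in the sort, was the most even, at 24.7, 20.2 and 21.2 TPM. *Lyve1* (chr7:110850607-110863239), a hyaluronan receptor also used in the sort, was at 16.0, 42.0 and 22.6 TPM and was highest in AAV-Control 2. *Prox1* (chr1:190118035-190170714), the master regulator of lymphatic fate, was the lowest, at 14.1, 6.44 and 7.45 TPM. Its exons overlap a gene on the other strand.

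The 6 markers summed to 521, 398 and 369 TPM (429 ± 80.5, SD, n = 3) and to 3215, 2035 and 1331 coding TPM. AAV-Control 1 was the highest library for 5 of the 6 on both scales, *Lyve1* being the exception. Of 7663 nuclear protein-coding genes at a mean of 5 TPM or more, 8.67% were highest in that library in TPM and 39.8% in coding TPM. AAV-Control 3 was the lowest for 6 of 6 in coding TPM, where 22.7% of those genes were, but not in TPM, where *Lyve1* was lowest in AAV-Control 1 and *Flt4*, *Pdpn* and *Prox1* in AAV-Control 2. *Ccl21a* and *Mmrn1* led and *Prox1* was last in every library, and *Mmrn1* was 5.56, 7.26 and 6.01 times *Prox1*.

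**Figure D2:**
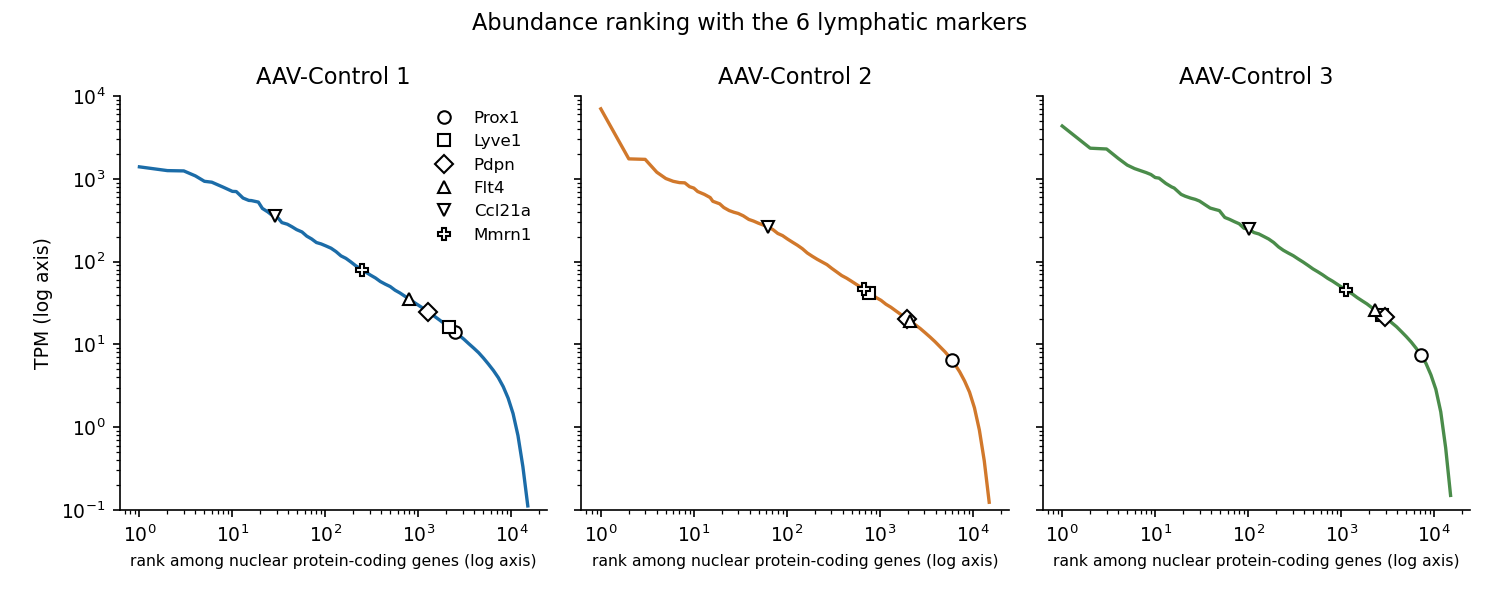
TPM (log axis) against rank (log axis) for nuclear protein-coding genes in AAV-Control 1, 2 and 3, with open symbols for the 6 lymphatic markers. *Ccl21a* sits at ranks 29, 63 and 101 and *Prox1* at ranks 2489, 5964 and 7210.

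*Ccl21a* has near copies on chromosome 4, among which reads can be split. Over the bases that can be placed against it without gaps, *Ccl21d* differed at 6 of 870 bases, *Gm13304* at 5 of 837, and *Ccl21b* and *Gm10591* at 2 of 402 each. Their TPM were 101, 63.3 and 65.4 for *Ccl21d*, 66.8, 43.5 and 23.3 for *Gm13304*, 94.6, 66.0 and 55.3 for *Ccl21b*, and 88.2, 60.8 and 55.1 for *Gm10591*. The 5 genes summed to 702, 497 and 446 TPM. The order of the libraries was that of *Ccl21a* alone.

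Of 20 lymphatic surface and secreted genes, which include 5 of these markers, 17 reached 5 TPM in every library, and the median was 26.9 TPM. *Stab1*, a scavenger receptor shared by LECs and macrophages, was at 41.9, 269 and 159 TPM. *Cp*, the copper-binding ferroxidase ceruloplasmin, was at 58.9, 58.0 and 142 TPM, and *Fgl2*, a secreted fibrinogen-like protein, at 88.8, 54.4 and 75.9 TPM. *Reln*, the secreted signal reelin, was at 32.8, 16.3 and 16.0 TPM, *Nrp2*, a coreceptor of VEGFR-3, at 32.7, 38.1 and 67.7 TPM, and *Stab2*, a clearance receptor for hyaluronan, at 14.3, 7.71 and 10.9 TPM. The absent members were *Nts*, which encodes neurotensin (0, 6 and 14 counts), and the atypical chemokine receptor *Ackr4* (7, 14 and 9 counts), while *Ackr2*, which scavenges inflammatory chemokines, was at 8.03, 2.86 and 4.16 TPM. For *Nts*, the 0 counts of AAV-Control 1 allow up to 0.269 TPM, taking 3 counts as the limit. The summed level was 954, 994 and 1080 TPM, with a highest-to-lowest ratio of 1.13 in TPM but 1.51 in coding TPM. In TPM this sum was the most even of the lists of cell type or function. The evenness is that of the sum and not of its members, since *Stab1* alone ranged from 41.9 to 269 TPM.

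Among 14 lymphatic transcription factors, 11 reached 5 TPM in every library. The flow-responsive factors led, with *Klf2* at 145, 118 and 214 TPM and *Klf4* at 96.1, 110 and 137 TPM. *Foxp2* was at 52.0, 27 and 35.2 TPM, *Nr2f2* (COUP-TFII, which sets venous identity) at 28.5, 15.9 and 46.3 TPM, *Foxc2*, a valve factor, at 29.8, 14.8 and 25.6 TPM and *Foxc1* at 35.5, 16.1 and 37.1 TPM. *Tbx1* was at 14.6, 5.04 and 5.50 TPM. The members that missed 5 TPM in a library were *Sox18*, which switches on *Prox1* in development (4.23, 4.44 and 26.6 TPM), *Gata2*, a valve factor also used by blood vessels (1.29, 6.04 and 18.1 TPM), and *Hhex* (3.07, 4.27 and 9.01 TPM). These last 3 were lowest in AAV-Control 1 and highest in AAV-Control 3, the order of the blood endothelial list given below. On coding TPM *Sox18* was lowest in AAV-Control 2.

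In the VEGF family, 7 of 10 ligands and receptors reached 5 TPM in every library, against 25.7% of nuclear protein-coding genes. *Vegfa*, the main ligand for blood vessels, was at 31.8, 19.2 and 38.7 TPM, *Pgf* at 13.4, 9.04 and 12.8 TPM and *Vegfb* at 8.81, 9.73 and 15.2 TPM. The lymphatic ligand *Vegfc* was at 5.74, 4.38 and 17.8 TPM, below *Pgf* and *Vegfb* in AAV-Control 1 and 2 and above both in AAV-Control 3, and *Vegfd*, the lowest ligand named here, at 1.40, 0.300 and 2.02 TPM. Among receptors, *Kdr* (VEGFR-2) was at 14.1, 27.1 and 74.5 TPM, and *Flt1* (VEGFR-1), which lymphatic endothelium is known to use little, at 1.52, 23.7 and 106 TPM. The ratio of *Flt4* to *Flt1* was 23.4, 0.814 and 0.245. The balance between these receptors thus differed between repeats far more than *Flt4* itself. *Nrp1*, the neuropilin of VEGFR-2, was at 36.7, 57.9 and 102 TPM.

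Of 12 genes of the Tie, adrenomedullin and sphingosine 1-phosphate receptor systems, 6 reached 5 TPM in every library, against 25.7% of nuclear protein-coding genes. These systems steady vessel growth and barrier. *Ramp2*, the partner of the adrenomedullin receptor, was at 77.0, 55.9 and 93.1 TPM, its receptor *Calcrl* at 12.4, 13 and 41.8 TPM, and the ligand *Adm* at 12.7, 9.25 and 7.71 TPM. *Angpt2*, a Tie ligand made by endothelium, was at 27.4, 18.9 and 23.3 TPM, against 2.17, 1.70 and 3.68 TPM for *Angpt1*, the mural ligand. The receptor *Tie1* was at 11.9, 16.0 and 39.0 TPM, and *Tek*, which encodes TIE2, at 1.93, 9.71 and 38.6 TPM. The ligands *Angpt2* and *Adm* were highest in AAV-Control 1 and both Tie receptors in AAV-Control 3, in TPM and in coding TPM.

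Of 14 junction genes, 10 reached 5 TPM in every library. *Ctnnb1* (beta-catenin) was at 81.7, 80.8 and 159 TPM, *Cdh5* (VE-cadherin) at 39.5, 56.2 and 106 TPM and *Pecam1*, which encodes the sort antigen CD31, at 20.9, 46.1 and 121 TPM. *Cldn5*, the main endothelial claudin, was at 17.1, 23.0 and 41.5 TPM, and *Esam*, an adhesion molecule of blood vessels and platelets, at 0.816, 14.3 and 43.8 TPM. *Ocln* (0.535, 1.25 and 5.19 TPM) and *Cgn* (1.04, 0.549 and 0.462 TPM), tight junction genes that epithelia use more, were low. Of the 14 genes, 13 were highest in AAV-Control 3 in TPM and 10 in coding TPM, against 79.3 and 34.6% of all nuclear protein-coding genes at a mean of 5 TPM or more.

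Chemokines other than *Ccl21a* divided by library. Of 17 chemokines and chemokine receptors, 6 reached 5 TPM in every library, against 25.7% of nuclear protein-coding genes. *Cxcl12*, a retention signal made by stroma and endothelium, was at 50.4, 35.9 and 79.7 TPM, *Cx3cl1* at 12.8, 11.4 and 26.2 TPM and *Ccl19*, the other CCR7 ligand, at 8.92, 5.04 and 10.9 TPM. The monocyte attractants *Ccl2* (3.85, 234 and 125 TPM) and *Ccl7* (3.07, 120 and 67.2 TPM) had the order of the macrophage list given below. *Ccr7* had 1 count in each library, and *Ccl20* and *Ccl28* had at most 6.

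Of 20 genes of valves and flow sensing, 14 reached 5 TPM in every library. *Fn1* (fibronectin, a valve matrix protein) was at 123, 126 and 138 TPM and *Gja1* (connexin 43) at 109, 81.9 and 117 TPM. *Emilin1*, an anchoring matrix protein of lymphatic vessels, was at 71.8, 39.3 and 103 TPM, and *Itga9*, the integrin that binds fibronectin in valves, at 13.1, 25.1 and 16.4 TPM. The stretch-gated channels *Piezo1* and *Piezo2* were at 9.13, 12.3 and 21.2 TPM and at 9.51, 6.57 and 9.83 TPM. The connexin gene *Gja4* (1.18, 3.78 and 5.93 TPM) and the polarity genes *Vangl2* and *Celsr1*, at most 4.94 TPM, did not reach 5 TPM in every library.

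**Figure D3:**
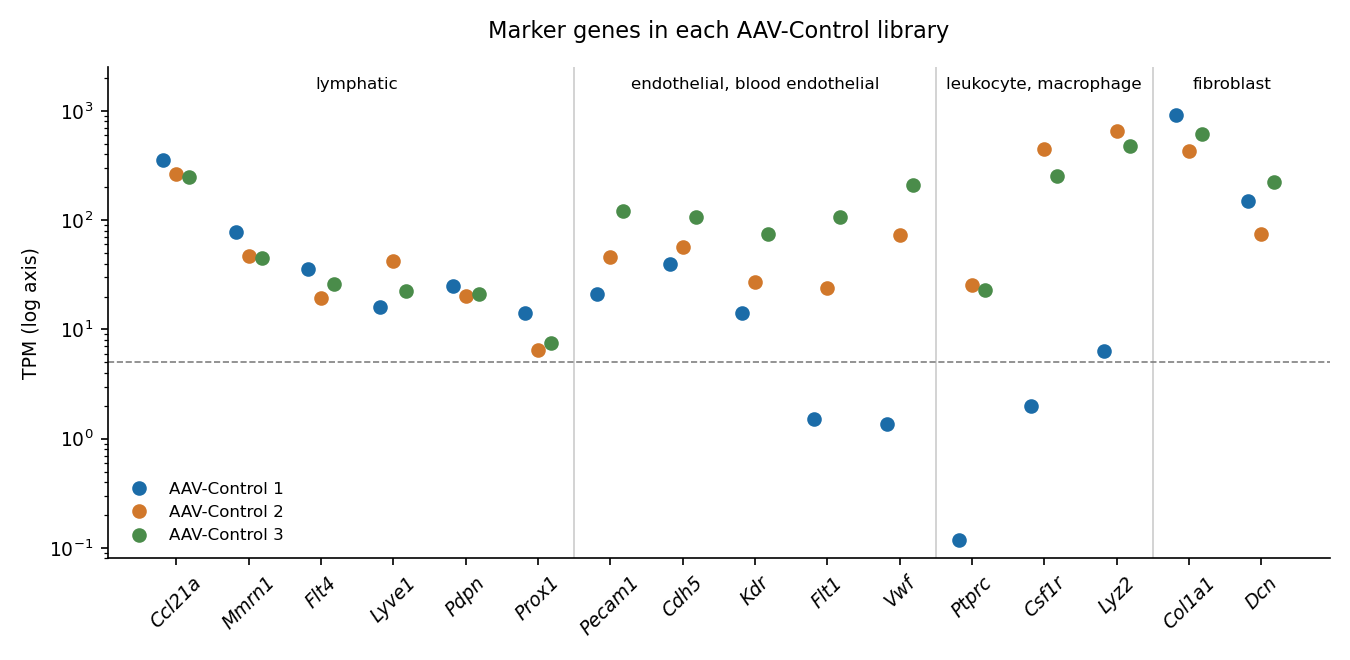
TPM (log axis) of marker genes in AAV-Control 1, 2 and 3, 1 point per library, with a dashed line at 5 TPM. All 6 lymphatic markers sit above the line, while *Flt1*, *Vwf*, *Ptprc* and *Csf1r* sit below it in AAV-Control 1 only.

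Markers of other cell types of the dura were then read in the same way. Fibroblast genes had the highest sum of the cell type lists in AAV-Control 1 and 3, and macrophage genes in AAV-Control 2. Of 20 fibroblast genes, 17 reached 5 TPM in every library, with a sum of 4952, 2540 and 5678 TPM that was 9.51, 6.38 and 15.4 times the sum of the 6 lymphatic markers. *Mgp*, an inhibitor of mineralization, was at 1256, 702 and 2291 TPM. *Col1a1* and *Col1a2*, the chains of type I collagen, were at 910, 433 and 616 TPM and at 790, 353 and 558 TPM. *Serpinf1* was at 586, 323 and 585 TPM, *Fmod* (fibromodulin) at 322, 122 and 303 TPM and *Dcn* (decorin) at 151, 74.4 and 223 TPM. The receptor *Pdgfra*, a defining fibroblast gene, was at 46.9, 23.8 and 36.4 TPM. *Dpt* (dermatopontin), with 4, 1 and 18 counts, was near 0. AAV-Control 2 was lowest for 16 of the 20 genes in coding TPM, where it was lowest for 42.5% of nuclear protein-coding genes at a mean of 5 TPM or more. *Mgp* and *Serpinf1*, which other cells also use, made up 37.2, 40.4 and 50.7% of the sum. Without them it was 5.98, 3.80 and 7.60 times that of the lymphatic markers.

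Macrophage genes separated AAV-Control 1 from the others. Their sum was 39.4, 3672 and 2429 TPM, or 0.0756, 9.22 and 6.59 times that of the lymphatic markers. Of 18, the number at 5 TPM or more was 2, 18 and 18, where 28.6, 31.8 and 39.8% of nuclear protein-coding genes reached that level. *Lyz2* (lysozyme) was at 6.40, 656 and 475 TPM, *Csf1r*, the receptor of the macrophage growth factor, at 1.97, 450 and 253 TPM and *C1qa*, a complement subunit, at 2.98, 383 and 244 TPM. *Mrc1* (CD206), a border macrophage marker, was at 8.25, 214 and 138 TPM, and *Ptprc*, the sort's exclusion marker, at 0.119, 25.7 and 23.2 TPM. *Fcgr1*, a high-affinity Fc receptor, had 0 counts in AAV-Control 1, which allows up to 0.216 TPM, against 34.7 and 24.4 TPM. AAV-Control 2 was highest for 18 of 18 genes in coding TPM and for 17 in TPM, against 25.6 and 12.0% of nuclear protein-coding genes at a mean of 5 TPM or more. *Lyve1* shared the rank order of the libraries with the macrophage sum in TPM but not in coding TPM. There it was at 98.9, 215 and 81.4, lowest in AAV-Control 3, while all 18 macrophage genes were lowest in AAV-Control 1. *Mrc1* was 0.515, 5.09 and 6.10 times *Lyve1*. How much of the *Lyve1* value came from macrophages was not tested.

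Blood endothelial genes were lowest in AAV-Control 1 and highest in AAV-Control 3, with a sum of 101, 271 and 827 TPM (624, 1382 and 2985 coding TPM). Of 20, the number at 5 TPM or more was 4, 9 and 16, where 28.6, 31.8 and 39.8% of nuclear protein-coding genes reached that level. *Vwf* (von Willebrand factor) was at 1.35, 73.2 and 208 TPM, *Plvap*, of fenestrated vessels, at 60.8, 82.0 and 215 TPM, *Selp* (P-selectin) at 0.934, 4.81 and 32.2 TPM, *Ly6c1* at 0.692, 14.1 and 46.1 TPM and *Slco1a4*, a transporter of brain vessels, at 0.241, 9.62 and 41.5 TPM. AAV-Control 3 was highest for 20 of 20 genes in TPM and for 18 in coding TPM, against 79.3 and 34.6% of nuclear protein-coding genes at a mean of 5 TPM or more, so the count in TPM stands little above that of genes at large. The pan-endothelial list of 25 genes had the same order, at 330, 501 and 1349 TPM, and 24 of its genes were highest in AAV-Control 3 in coding TPM. *Egfl7* (31.0, 44.0 and 187 TPM) and *Emcn*, a venous and capillary sialomucin (4.12, 20.2 and 84.1 TPM), had the largest ratios of highest to lowest library among its 7 highest genes, at 6.05 and 20.4. AAV-Control 1 was the library with the most lymphatic marker RNA and the least blood endothelial RNA on both scales.

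Mural genes, of smooth muscle and pericytes, summed to 164, 173 and 412 TPM (1014, 882 and 1487 coding TPM). Of 14, 7 were at 5 TPM or more in every library, against 25.7% of nuclear protein-coding genes. *Pdgfrb*, also used by fibroblasts, was at 47.9, 27.6 and 67.5 TPM, *Acta2* (smooth muscle actin) at 12.4, 27.8 and 78.2 TPM, and *Rgs5*, a pericyte gene, at 0.514, 17.8 and 56.7 TPM. *Myh11*, the defining smooth muscle myosin, was at 0.266, 6.24 and 14.4 TPM. Bone and tendon genes summed to 247, 162 and 519 TPM. *Alpl*, a phosphatase of mineralizing cells that blood vessels also carry, was at 148, 97.1 and 207 TPM, *Runx2*, the bone lineage factor, at 22.7, 9.53 and 38.6 TPM and *Bglap* (osteocalcin) at 4.20, 8.59 and 59.0 TPM, while *Dmp1* and *Phex* of osteocytes stayed at 22 counts or fewer.

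Lymphocyte, granulocyte and neuronal genes were low. Of 15 lymphocyte genes none reached 5 TPM in every library, and only *Ighm* (0.593, 40.3 and 24.1 TPM) and *Cd4* (0.165, 20.3 and 8.07 TPM), which macrophages can also carry, passed it in AAV-Control 2 and 3. *Cd3e* and *Ms4a1*, which define T and B cells, had at most 11 counts, and *Gzma* and *Nkg7* of killer cells had 0 in every library, which allows up to 0.459, 0.382 and 0.242 CPM (counts scaled to a library total of 1000000). *S100a9* of neutrophils was at 0, 17.1 and 8.60 TPM, and the haemoglobin gene *Hba-a2* at 4.54, 49.6 and 69.2 TPM. Schwann and glial genes summed to 63.2, 105 and 117 TPM, of which *Pmp22* (32.7, 64.5 and 57.1 TPM) and *Cldn11* (23.9, 17.3 and 23.4 TPM) made up most in each library. Both are used by other meningeal cells, and *Sox10*, which defines Schwann cells and other glia of the neural crest, was at most 1.35 TPM. Among neuronal genes *Snap25* was at 8.55, 2.0 and 10.8 TPM and *Rbfox3* had at most 6 counts. *Ttr* (transthyretin), the main product of choroid plexus epithelium, was at 701, 535 and 740 TPM, while *Folr1* (5.16, 4.37 and 4.06 TPM) and *Kl* (6.14, 3.46 and 7.56 TPM) of the same epithelium were near the limit used here and *Epcam* was at most 1.47 TPM.

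**Figure D4:**
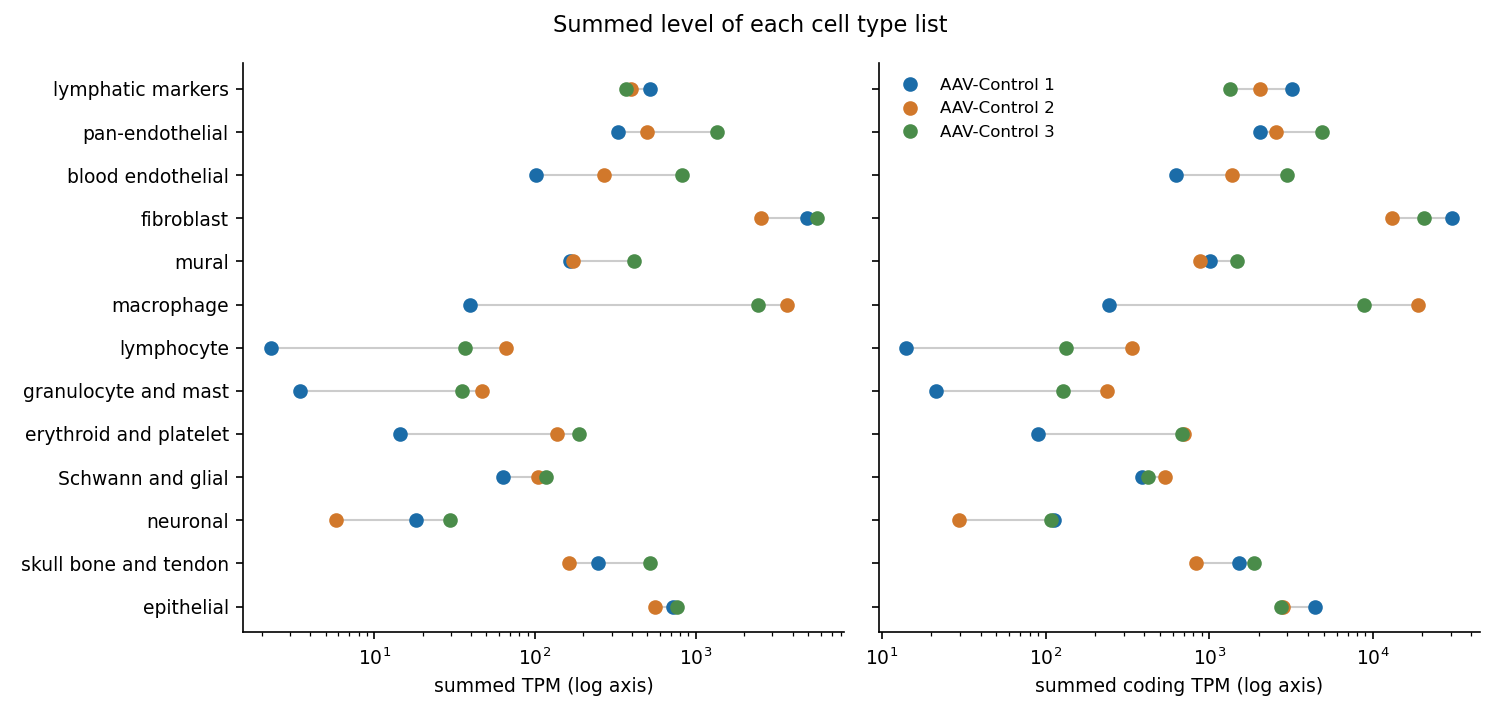
Each row is a list of cell type markers and each point the summed level in AAV-Control 1, 2 or 3, in TPM on the left and in coding TPM on the right (log axes). The macrophage sum spans 39.4 to 3672 TPM, while the sum of the 6 lymphatic markers spans 369 to 521 TPM.

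The highest protein-coding genes mixed these sources with stress response and general genes. *Apoe*, a lipid carrier made in quantity by macrophages, was first by mean (4005 ± 3176 TPM, SD, n = 3) but at 673, 6998 and 4343 TPM, with AAV-Control 1 far below the others. *Fos* was second at 1245, 1740 and 1765 TPM, followed by *Mgp*, *Actb* (744, 1717 and 1465 TPM) and *Igfbp5*, a binding protein for insulin-like growth factors (1394, 593 and 1329 TPM), which was the highest protein-coding gene of AAV-Control 1. *Cst3* (cystatin C) was at 705, 773 and 1019 TPM, *Fth1* (ferritin heavy chain) at 538, 1008 and 1126 TPM, *Itm2b* at 424, 894 and 1188 TPM and *Gpx3*, a secreted glutathione peroxidase, at 844, 308 and 1251 TPM. *Cd74*, the invariant chain of MHC class II, was at 59.2, 933 and 893 TPM, and *Selenop*, a selenium carrier, at 182, 648 and 609 TPM. *Igfbp4* (548, 394 and 473 TPM), *Igf2* (581, 270 and 430 TPM) and *Bgn* (biglycan, 523, 260 and 424 TPM) were lowest in AAV-Control 2 in TPM. Other genes among the 30 highest were *Eef1a1* (a translation factor), *Ubb* (ubiquitin), *Actg1* (an actin), *Calr* and *Hsp90ab1* (chaperones) and *Ftl1* (ferritin light chain), with means from 393 to 793 TPM. By mean TPM the lymphatic markers, each taken as a single gene, were not among these 30 genes. *Ccl21a* alone ranked 29 in AAV-Control 1, and with its 4 near copies it summed to 702, 497 and 446 TPM.

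Antigen presentation genes held 10 of 15 at 5 TPM or more in every library, and their sum was 597, 2888 and 3383 TPM. The class II genes *H2-Ab1* (29.4, 386 and 424 TPM), *H2-Eb1* (22.2, 372 and 340 TPM) and *H2-Aa* (18.1, 219 and 250 TPM) were lowest in AAV-Control 1 on both scales, with *H2-Ab1* at 181, 1971 and 1529 and *H2-Aa* at 112, 1117 and 902 in coding TPM. The costimulator *Cd86* had 0 counts there, which allows up to 0.205 TPM, against 36.4 and 33.9 TPM. Class I genes, which most cells use, differed less. *B2m* was at 134, 280 and 648 TPM, *H2-K1* at 115, 261 and 309 TPM and *Tapbp*, which loads class I molecules, at 81.1, 88.4 and 102 TPM.

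Lipid and scavenger genes held 8 of 15 at 5 TPM or more in every library, against 25.7% of nuclear protein-coding genes. *Lrp1*, a broad endocytic receptor, was at 283, 153 and 258 TPM. *Cd36*, a fatty acid receptor (1.36, 46.1 and 31.0 TPM), and *Msr1*, a macrophage scavenger receptor (0.115, 17.6 and 9.52 TPM), had the order of the macrophage list, while *Fabp4* (0.592, 9.47 and 26.7 TPM), *Gpihbp1* (5.12, 8.44 and 17.2 TPM) and *Lpl* (1.84, 4.95 and 13.6 TPM), which serve capillary uptake of fatty acids, had that of the blood endothelial list.

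Immediate early genes, which respond within minutes to handling and enzymatic digestion of tissue among other stimuli, were high in every library. Of 18, 17 reached 5 TPM throughout, with a median of 176 TPM and a sum of 3304, 5430 and 5821 TPM. *Jun* was at 351, 535 and 510 TPM, *Egr1* at 275, 413 and 541 TPM, *Fosb* at 344, 395 and 402 TPM and *Dusp1*, which switches off MAP kinases, at 102, 308 and 212 TPM. *Egr3* was the exception, at 4.43, 16.0 and 27.4 TPM. All 15 heat shock and chaperone genes reached 5 TPM in every library, the inducible *Hspa1a* at 44.5, 43.1 and 74.9 TPM and the constitutive *Hspa8* at 289, 276 and 443 TPM.

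Interferon-stimulated genes held 12 of 19 at 5 TPM or more in every library. Their sum was 251, 460 and 656 TPM (1549, 2349 and 2367 coding TPM). *Ifitm3* was at 56.8, 105 and 157 TPM and *Isg15* at 10.1, 9.52 and 21.7 TPM. Cell cycle genes were low, with only *Pcna*, which also serves DNA repair, at 5 TPM or more in every library (15.9, 22.4 and 41.8 TPM). *Mki67* was at 1.41, 3.58 and 2.10 TPM and *Top2a* at 2.58, 2.01 and 2.99 TPM. All 16 housekeeping genes were at 5 TPM or more throughout, from *Actb* down to *Pgk1*, a glycolytic enzyme, at 5.34, 6.91 and 10.6 TPM. The 83 cytosolic ribosomal protein genes summed to 4845, 7418 and 15816 TPM and the 13 mitochondrial mRNAs to 4149, 5311 and 13658 TPM, both highest in AAV-Control 3.

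The spread between the repeats was measured over 7663 nuclear protein-coding genes at a mean of 5 TPM or more. The median coefficient of variation (CV, SD over mean of the 3 libraries) was 0.364 in TPM and 0.243 in coding TPM, and 0.215 in TPM without AAV-Control 3. It was 0.438 for genes at 1 to 5 TPM, 0.364 at 5 to 50, 0.362 at 50 to 500 and 0.386 for the 20 genes at 500 TPM and over, so the median did not fall further above 5 TPM. AAV-Control 3 was the highest library for 80.3% of genes at 5 to 50 TPM, but for 35.2% in coding TPM, a scale on which the median log2 difference between libraries was -0.11 (2 minus 1), 0.036 (3 minus 1) and 0.12 (3 minus 2) in place of 0.14, 0.75 and 0.57. Across these genes, which share libraries and are not independent replicates, log2(TPM + 1) correlated at 0.709 between AAV-Control 1 and 2, 0.778 between 1 and 3, and 0.888 between 2 and 3. The common biological CV of edgeR, which takes out counting error, was 0.367 over 13628 genes.

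Of 682 nuclear protein-coding genes at a mean of 50 TPM or more, 88 (12.9%) spread over 4-fold between the highest and the lowest library, and 59 (8.65%) did so in coding TPM. The count in TPM was 13 without AAV-Control 1 and 51 without AAV-Control 3. The 10 widest were all lowest in AAV-Control 1. Most are macrophage genes, namely *Lilrb4a*, an inhibitory receptor (0.0740, 83.2 and 67.7 TPM), *Adgre1*, which encodes F4/80 (0.476, 116 and 78.2 TPM), *Pf4* (0.717, 168 and 116 TPM), *Csf1r*, *C1qb*, *Fcrls*, *Laptm5* and the chemokines *Ccl8* (0.421, 79.9 and 90.4 TPM) and *Ccl12* (0, 99.6 and 77.3 TPM). *Adgre1* spanned 244-fold and *Csf1r* 228-fold. *Lilrb4a*, *Pf4* and *Ccl8* had 2 counts each in AAV-Control 1, so the size of their ratio is not fixed by the data, and *Ccl12* with 0 counts was at least 146-fold higher in AAV-Control 2, taking 3 counts as the limit. *Vwf* was the only blood endothelial gene among them.

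The 10 narrowest genes spread by 1.01 to 1.15 times in TPM. They were *Nisch*, an imidazoline receptor candidate (158, 156 and 158 TPM), *Rsrp1*, *P4hb* (protein disulfide isomerase, 159, 157 and 152 TPM), *Tm9sf2*, *Por* (cytochrome P450 reductase), *Dync1h1* (the dynein heavy chain), *Rrp1*, *Fn1*, *Sf1*, a splicing factor, and *Glul* (glutamine synthetase). In coding TPM the same genes spread by 1.49 to 1.79 times, so this evenness belongs to the TPM scale.

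**Figure D5:**
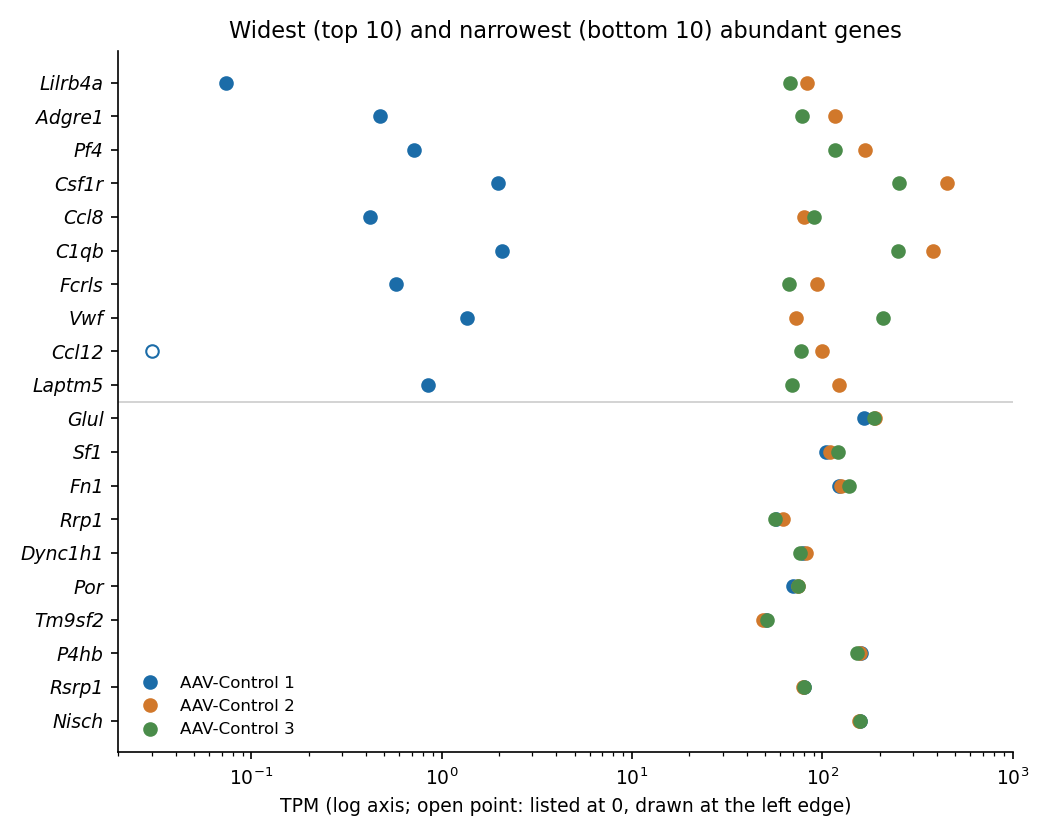
TPM (log axis) in AAV-Control 1, 2 and 3 of the 10 widest and 10 narrowest nuclear protein-coding genes at a mean of 50 TPM or more. The widest are at 2.08 TPM or below in AAV-Control 1 and at 66.9 TPM or above in the others, and the narrowest lie within 1.15-fold.

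The 5 genes at a mean of 50 TPM or more that stood highest above the mean of the other libraries were taken for each library. In AAV-Control 1 these were *Matn4*, a matrix protein (112, 34.0 and 64.6 TPM, log2 ratio 1.18), *Cdkn1c*, an imprinted cell cycle inhibitor, *Chad* (chondroadherin, 237, 62.6 and 174 TPM), *Shisa3* and *Wtap*, of the RNA methylation complex. In AAV-Control 2 they were *Ccdc152* (36.8, 115 and 6.42 TPM, log2 ratio 2.42), whose exons overlap a gene on the other strand, *Cbr2*, *Cd163*, a haemoglobin scavenger receptor of border macrophages (0.940, 104 and 49.9 TPM), *Ucp2* and *Trf* (transferrin). In AAV-Control 3 they included *Vwf* (log2 ratio 2.48), *Egfl7*, *Sparcl1* and the ribosomal copy *Rps12-ps3*. The log2 ratios ran from 0.95 to 1.18 in AAV-Control 1, and from 1.86 to 2.48 in the other libraries. In coding TPM they were 1.40 to 1.77 and 1.56 to 2.52. They describe single pools, with no replicate behind any one of them. Reads may be shared with overlapping genes for some of the genes named in the text. Exons on the same strand overlap for *Rn7s1*, *Rn7s2*, *Rpph1*, *Rmrp*, *Ramp2*, *Egfl7*, *Nrp1*, *Pdgfra*, *Ctnnb1*, *Cd74*, *Igf2*, *Trf*, *Glul* and *Lilrb4a*, among others. Exons on the other strand alone overlap for *Reln*, *Stab1*, *Stab2*, *Cp*, *Nr2f2*, *Csf1r*, *Fn1*, *Piezo1*, *Selp* and *Matn4*, among others.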

How the data were processed

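RNA-seq of cells sorted as dural LECs was analysed from 3 AAV-Control libraries, grouped by their treatment labels. Their total depth is given with the results. The authors deposited a table of estimated counts, which need not be whole, and a table of TPM per gene, both on mm10. The submitters' processing notes name FastQC, Trimmomatic, DRAGEN and Picard, and the counting settings and use of strand were not given in the sources used here. Because TPM includes short noncoding genes, their share sets the TPM of every mRNA, so coding TPM was computed by rescaling over nuclear protein-coding genes. The AAV-VEGF-C columns were not used, and no column belonged to another series.

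Gene classes, coordinates and transcripts were taken from GENCODE M21 (GRCm38), in which 99.5% of the gene identifiers were found without their version and 98.1% with it. Analysis used Python 3.11.15, pandas 2.3.3, numpy 2.4.6, R 4.3.3 and edgeR 4.0.16 (TMM factors and common dispersion on counts rounded to whole numbers), with DESeq2 1.42.0 as an alternative. The dispersion step was tested on simulated data. With 1 group there was no test between groups. A gene was called present at 5 TPM or more in all 3 libraries. A count of 0 was given a limit of 3 counts, which covers counting error only. Named genes were the 10 highest of any class, the 30 highest protein-coding, the 10 widest and 10 narrowest at a mean of 50 TPM or more, the 5 highest over the other libraries in each, and examples and exceptions of each gene list. Ribosomal protein, histone and unnamed genes were left out of these protein-coding lists of named genes. They were kept in the ranks, the lists of 100 and the counts of genes. The nuclear protein-coding class holds no gene of the mitochondrial genome. That this group was described, and which gene lists were used, was decided with earlier results of these data known, while its libraries were taken by label. Nothing beyond the repeat number and pooling is known of the separate samples, so SDs cover the spread between pools, sorts and libraries together. Alternatives were count shares, CPM, other thresholds and filters, and leaving out each library. Some genes and sequences are not reported here.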

Additional observations from a re-analysis of the deposited data

How the results depend on the processing

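No paired analysis was possible because 1 group is described and nothing was compared between groups. Genes at 1 TPM or more in all 3 libraries numbered 11905, against 6288 at 5 TPM, and 12582 to 13033 when 1 library was left out. The nuclear protein-coding share of 21.2% of TPM was 70.9% of counts, and 17.9 to 23.6% without 1 library. The 100 highest genes held 76.5% of TPM but 38.8% of counts and 21.4% within protein-coding genes, and 74.1 to 79.4% without 1 library. All 6 lymphatic markers reached 5 TPM, and 1 reached 50 TPM. The median CV of 0.364 was 0.243 in coding TPM and 0.201 in CPM with TMM factors, and ran from 0.215 to 0.396 without 1 library. The biological CV of 0.367 was 0.541 with no filter, 0.444 at a mean of 5 TPM and 0.213 by DESeq2, as the median of gene estimates, and 0.334 to 0.405 without 1 library. The 88 abundant genes spread over 4-fold were 56 in CPM and 779 at a mean of 5 TPM, and 13 to 79 without 1 library. Sums over cell type lists depended on single libraries. The blood endothelial mean of 399.6 TPM was 186 to 549 without 1 library, and the mean of the macrophage list, 2047 TPM, was 1234 to 3050. Depth limits the rare genes: 3 counts stand for 0.459, 0.382 and 0.242 CPM in AAV-Control 1, 2 and 3. The causes of these shifts were not tested.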
